A study of Homo sapiens with 4 samples.

Results

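The 10 genes described here encode 3 EGR zinc finger factors (EGR1, EGR2 and EGR3) and 7 subunits of the AP-1 transcription factor (FOS, FOSB, FOSL1, FOSL2, JUN, JUNB and JUND). They were examined in maps of acetyl-H3, the modified histone found at active promoters and enhancers, made by chromatin immunoprecipitation and sequencing (ChIP-seq). The cells were H929, an established human multiple myeloma line, either overexpressing AIMP1, a scaffold protein of the multi-tRNA synthetase complex, or wild type. Each condition had 1 acetyl-H3 library with 1 deposited peak list. How AIMP1 was introduced, and whether the wild-type cells carried an empty vector, is not given in the sources used here. Peaks were taken where the authors' annotation gave 1 of the 10 symbols: 8 of the 9780 peaks of the overexpression list and 4 of the 4828 peaks of the wild-type list. These 12 peaks belonged to 7 of the 10 genes; JUN, JUND and EGR2 had none.

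Immediate early genes are transcribed within minutes of a growth factor or stress signal, without new protein synthesis. The signal passes through RAS and the ERK kinases to ELK factors. These factors sit with the serum response factor SRF on CArG boxes of EGR and FOS promoters. Signals also pass through cyclic AMP or stress kinases to factors on CRE sites. EGR proteins bind GC-rich DNA. AP-1 is a dimer of a JUN protein with a FOS protein, another JUN protein or a related leucine zipper protein, and it binds the TRE sequence; it takes part in growth, survival and differentiation of lymphoid and many other cells.

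The RefSeq promoter windows below, from 250 bases before to 50 after a transcription start, are shown 5′ to 3′ for the 5 genes on which the comparisons turn. EGR1 and EGR2 share a CArG box but differed in having a peak. The windows of FOSB and JUN were touched by peaks of both lists, and JUND lay under the peak with the highest fold. Capitals mark 7 motifs, searched on both strands: TRE (TGANTCA), CRE (TGACGTCA), its shorter form TGACGT, the variant TGACATCA, the EGR site (GCGNGGGCG), the CArG box and TATAAA.
EGR1, GRCh38.p14 chr5:138465229-138465528, plus strand: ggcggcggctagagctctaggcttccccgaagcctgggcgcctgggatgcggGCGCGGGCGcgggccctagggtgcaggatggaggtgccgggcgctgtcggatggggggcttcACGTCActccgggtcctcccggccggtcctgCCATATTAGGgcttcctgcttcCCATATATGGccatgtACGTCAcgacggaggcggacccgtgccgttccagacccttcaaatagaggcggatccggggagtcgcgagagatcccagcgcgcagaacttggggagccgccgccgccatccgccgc
EGR2, GRCh38.p14 chr10:62816317-62816616, minus strand: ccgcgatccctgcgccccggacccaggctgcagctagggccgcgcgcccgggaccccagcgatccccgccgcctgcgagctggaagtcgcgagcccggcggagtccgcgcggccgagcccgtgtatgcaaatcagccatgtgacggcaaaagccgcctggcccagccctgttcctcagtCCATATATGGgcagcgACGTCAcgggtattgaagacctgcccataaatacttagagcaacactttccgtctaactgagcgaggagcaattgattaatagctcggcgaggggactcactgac
FOSB, GRCh38.p14 chr19:45467746-45468045, plus strand: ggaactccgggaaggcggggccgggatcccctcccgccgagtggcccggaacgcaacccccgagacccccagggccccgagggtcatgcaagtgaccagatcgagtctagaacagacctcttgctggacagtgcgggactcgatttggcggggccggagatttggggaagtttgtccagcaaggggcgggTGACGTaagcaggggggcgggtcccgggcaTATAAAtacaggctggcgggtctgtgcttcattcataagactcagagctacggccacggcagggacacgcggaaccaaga
JUN, GRCh38.p14 chr1:58783998-58784297, minus strand: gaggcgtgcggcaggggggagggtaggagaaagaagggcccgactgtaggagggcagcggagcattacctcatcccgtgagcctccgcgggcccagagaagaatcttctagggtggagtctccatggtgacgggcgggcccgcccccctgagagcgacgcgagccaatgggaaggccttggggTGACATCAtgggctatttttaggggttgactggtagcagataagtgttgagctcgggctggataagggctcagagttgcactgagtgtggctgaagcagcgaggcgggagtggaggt
JUND, GRCh38.p14 chr19:18281573-18281872, minus strand: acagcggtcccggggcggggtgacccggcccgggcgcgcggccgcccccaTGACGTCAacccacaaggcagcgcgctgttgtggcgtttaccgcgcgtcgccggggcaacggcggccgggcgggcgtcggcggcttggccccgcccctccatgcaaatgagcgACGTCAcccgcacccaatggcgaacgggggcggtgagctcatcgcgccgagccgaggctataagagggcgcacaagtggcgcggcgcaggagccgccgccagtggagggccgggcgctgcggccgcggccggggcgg

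The EGR1 window held 2 CArG boxes, starting 105 and 83 bases before the start site, and the EGR2 window held 1, starting 71 bases before it. A CArG box was found in 1.25% of the 22156 windows available for protein-coding genes. Some genes, among them EGR3 and FOSL1, had no window, and the shares of all windows given here leave them out. The shorter form TGACGT, which is contained in a full CRE, lay in 6 of the 10 member windows, against 8.92% of all windows. These windows belonged to 6 of the 8 genes with an entry (EGR1, EGR2, FOS, FOSB, FOSL2 and JUND). The shorter form was searched for after the member windows had been read, so this count carries no test. In 5 of the 6 genes a copy started between 55 and 67 bases before the start site: EGR2 at 55, FOSB at 60, FOS at 64, FOSL2 at 66 and EGR1 at 67. JUN had the variant TGACATCA, known as a site of its own autoregulation, starting 67 bases before the start, and JUND a full CRE starting 200 bases before it. TGACATCA and the full CRE were in 2.12% and 2.26% of all windows. FOSL2 had a TRE just inside its transcript. EGR1 and another EGR2 window had an EGR site, and FOS, FOSB and JUNB had TATAAA 33, 30 and 31 bases before the start; these motifs were in 6.16%, 12.2% and 9.46% of all windows. The member windows ranged from 54.7% to 77.3% G and C, with a median of 66.7%, against 62.3% for all windows and 67.0% for windows touched by an overexpression peak. A match is a description of the letters and not a measurement of binding.

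EGR1 had a broad promoter peak in the AIMP1-overexpressing cells and none listed in wild-type cells. EGR1 is the archetypal ERK target of its family. Its overexpression peak (chromosome 5, 138463272 to 138466619) was 3348 bp wide, with a 13.98 fold enrichment (p 3.14e-28). Fold enrichment and p are the authors' values for a peak within its own list; the background of the fold is not described, so they place a peak among the others of its list and cannot be compared across lists. Only 3.61% of the overexpression peaks had a higher fold and 6.88% were wider. The peak reached from 2207 bp upstream to 1140 bp downstream of the RefSeq start site, with its summit 1555 bp upstream. The nearest wild-type peak lay 59587 bp from this peak.

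EGR3, which with EGR2 restrains T cell activation in mice, also had a peak in overexpressing cells and none in wild-type cells. The peak (chromosome 8, 22693885 to 22695397) was 1513 bp wide, at fold 6.29 and p 5.2e-07. It stopped 405 bp short of the RefSeq start site and 583 bp from the start used by the authors' annotation, so it flanked the start without covering it. In fold, 66.5% of the overexpression peaks were higher. No wild-type peak lay within 20 kb of the EGR3 start. The nearest one, annotated to CSGALNACT1, was 3067381 bp from the gene, so the wild-type list was empty over a long stretch around EGR3. EGR2 had no peak within 1 kb of the gene in either list, although its CArG box window resembles that of EGR1 in this motif. Its nearest overexpression peak was 6188 bp beyond the gene, at the promoter of the neighbour ADO (chromosome 10, 62804015 to 62805808, fold 8.77, p 1.73e-13), and its nearest wild-type peak was 209635 bp away. A gene without a listed peak had none past the authors' threshold; weaker acetylation would not appear in the lists.

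FOS, the first-described partner of JUN, carried a promoter peak in overexpressing cells alone. It was 1699 bp wide (chromosome 14, 75278433 to 75280131), with a fold of 8.14 (p 6.55e-10), and its summit lay 188 bp upstream of the RefSeq start site. The nearest wild-type peak was downstream of the gene, at LINC01220, a long noncoding RNA gene. There both libraries had a peak: the overexpression peak (75293968 to 75296140, fold 4.75, p 5.08e-06) contained all 818 bp of the wild-type peak (75294801 to 75295618, fold 4.43, p 0.000612). The lists thus shared a place 15973 bp downstream of the FOS start, while at the FOS promoter a peak was listed for the overexpressing cells alone.

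FOSB was the only 1 of the 10 genes with annotated promoter peaks in both lists. FOSB, like FOS, carries an activation domain that FOSL1 and FOSL2 lack. The overexpression list split its promoter into 2 peaks. The upstream one (chromosome 19, 45466775 to 45467959) was 1185 bp wide, with a 6.94 fold enrichment (p 8.87e-06). The downstream one (45468192 to 45470659) was 2468 bp wide, with a fold of 10.2 (p 1.84e-16). A gap of 232 bp separated them, from 36 bp before to 195 bp after the RefSeq start site, so the start itself lay in the gap. The wild-type list had 1 peak of 1763 bp (45466988 to 45468750, fold 4.26, p 5.45e-07) that ran across the gap. It overlapped the upstream overexpression peak by 972 bp and the downstream one by 559 bp. Its summit was 93 bp from that of the upstream peak and 2281 bp from that of the downstream peak. Of all wild-type peaks, 6.42% were wider and 58.0% had a higher fold.

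FOSL1 and FOSL2, which encode the FRA proteins, had promoter peaks in overexpressing cells. The FOSL1 peak (chromosome 11, 65899065 to 65900511) was 1447 bp wide, with a 9.96 fold enrichment (p 2.24e-09), and began 34 bp inside the transcript as RefSeq places its start. A second overexpression peak, annotated to the neighbour CCDC85B (65890210 to 65892827, fold 9.26, p 9.16e-17), reached over the far end of FOSL1. The nearest wild-type peak was 31418 bp from the gene, at MUS81. FOSL2 had 2 overexpression promoter peaks that were 78 bp apart. The wider one, of 2954 bp (chromosome 2, 28391372 to 28394325, fold 7.55, p 1.26e-18), covered the start site, and the other, of 1267 bp (28390027 to 28391293, fold 6.34, p 5.98e-05), lay upstream. In wild-type cells FOSL2 had no promoter peak, but 2 peaks classed as distal intergenic were annotated to it. They lay 33235 bp (28358306 to 28359213, fold 3.38, p 0.000771) and 31678 bp (28359632 to 28360770, fold 3.19, p 0.000191) upstream by the authors' annotation. The FOSL2 peaks of the 2 lists thus stood at different places, at least 29257 bp apart. In the wild-type list, 90.8% and 94.5% of peaks had a higher fold than these distal peaks.

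**Figure D1:**
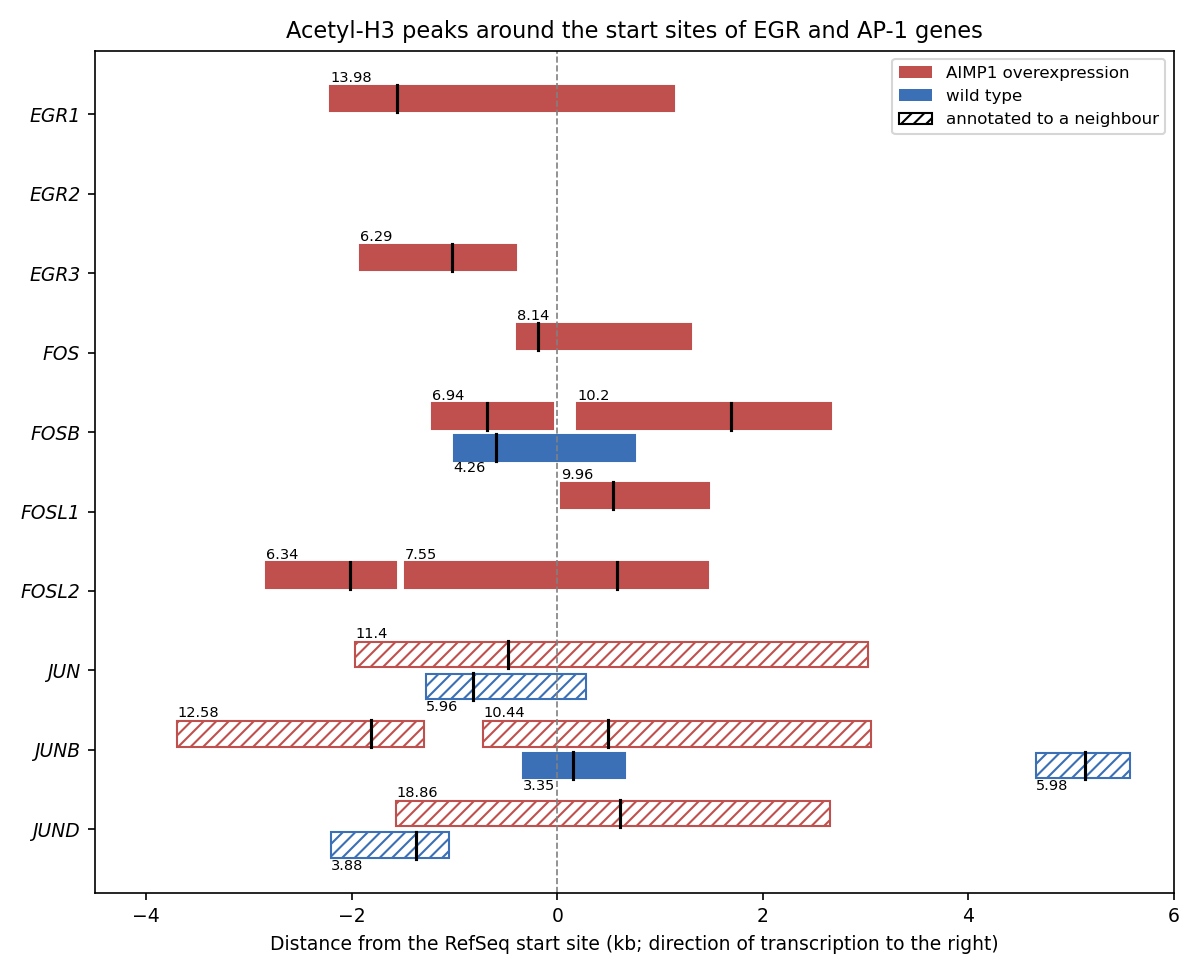
Acetyl-H3 peaks around the RefSeq start site of each of the 10 genes, by distance in kb with transcription to the right. Red bars are overexpression peaks and blue bars wild-type peaks, a black line marks each summit, hatching marks peaks that the authors annotated to a neighbour, and numbers are fold enrichments (18.86 at JUND). EGR2 has no bar, and JUN and JUND have only hatched bars.

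All 3 JUN genes lay under broad peaks of the overexpression list, yet the authors' annotation gave none of these peaks to a JUN gene. Each peak in the lists carries 1 gene, and here it went to a neighbour. JUN, the founding AP-1 subunit, lay under a peak annotated to LINC01135, a long noncoding RNA gene beside it. The overexpression peak (chromosome 1, 58781024 to 58786011) was 4988 bp wide, with a fold of 11.4 (p 7.53e-39), and only 1.90% of the overexpression peaks were wider. It reached from 1964 bp upstream to 3023 bp downstream of the JUN start site. The wild-type list also had a peak there, likewise given to LINC01135 (58783767 to 58785324, fold 5.96, p 2.19e-11). It was 1558 bp wide, lay wholly inside the overexpression peak and spanned the JUN start site. Only 4.52% of the wild-type peaks had a higher fold, a higher place than that of the wild-type peaks at FOSB, JUNB and JUND.

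JUNB, which can oppose JUN at some promoters, lay under an overexpression peak annotated to HOOK2 (chromosome 19, 12790764 to 12794541). This peak was 3778 bp wide, with a 10.44 fold enrichment (p 5.92e-36). The wild-type peak at the same start site was annotated to JUNB itself (12791154 to 12792147). It was 994 bp wide, with a fold of 3.35 (p 0.000678), and 91.4% of the wild-type peaks had a higher fold. The whole wild-type peak lay inside the overexpression peak, and the summits were 341 bp apart. By the annotation alone JUNB would count as marked in wild-type cells only, while by position both libraries had a peak over its start. Another overexpression peak, annotated to MIR5684 (12787788 to 12790188, fold 12.58, p 4.67e-12), ended 1298 bp upstream of the JUNB start, and a wild-type peak annotated to PRDX2 (12796145 to 12797058, fold 5.98, p 6.5e-05) began 4659 bp downstream of it.

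JUND, the JUN gene that is expressed most steadily in resting cells, lay under the highest fold seen at any of the 10 genes. The overexpression peak (chromosome 19, 18278965 to 18283188) was annotated to the microRNA gene MIR3188. It was 4224 bp wide, with a 18.86 fold enrichment (p 9.42e-74), and ranked 44 from the top of the list by fold. It covered the JUND gene from end to end. The wild-type list had a peak of 1147 bp beside it (18282675 to 18283821, fold 3.88, p 0.00034), also annotated to MIR3188. This peak stopped 1053 bp upstream of the JUND start and overlapped the overexpression peak by 514 bp. A second overexpression peak given to MIR3188 (18291462 to 18293863, fold 14.67, p 6.52e-24) lay 9840 bp upstream of JUND.

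Counted by the authors' annotation, 6 of the 10 genes carried a promoter peak in overexpressing cells (EGR1, EGR3, FOS, FOSB, FOSL1 and FOSL2). Of all 19974 protein-coding genes on the chromosomes with peaks, 33.9% had one. In wild-type cells 2 of the 10 had one (FOSB and JUNB), against 7.40% of all genes. FOSB had one in both (5.39% of all genes), 5 genes had one only with AIMP1 overexpressed (28.5%), and JUNB only without (2.01%). With any annotated peak counted, 6 of the 10 were in the overexpression list, 3 in the wild-type list (FOSB, FOSL2 and JUNB) and 2 in both (FOSB and FOSL2), against 36.1%, 14.5% and 9.28% of all genes. No share was tested, since each condition had 1 library.

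Counted by position in RefSeq, whatever gene a peak was given to, 9 of the 10 genes had an overexpression peak within 1 kb, all but EGR2; this was so for 44.2% of protein-coding genes. In the wild-type list FOSB, JUN and JUNB had one, against 13.3% of protein-coding genes, and the same 3 were the genes with one in both lists (10.2%). By promoter windows, 8 genes had an entry. Overexpression peaks touched windows of 7 of them (41.4% of 15813 genes), and wild-type peaks touched FOSB, JUN and JUNB (5.69%), all 3 of which were touched in both lists (4.73%). Of the 7 genes touched by an overexpression peak, JUN, JUNB and JUND had no promoter peak annotated to them; among all touched genes this was so for 20.2%.

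**Figure D2:**
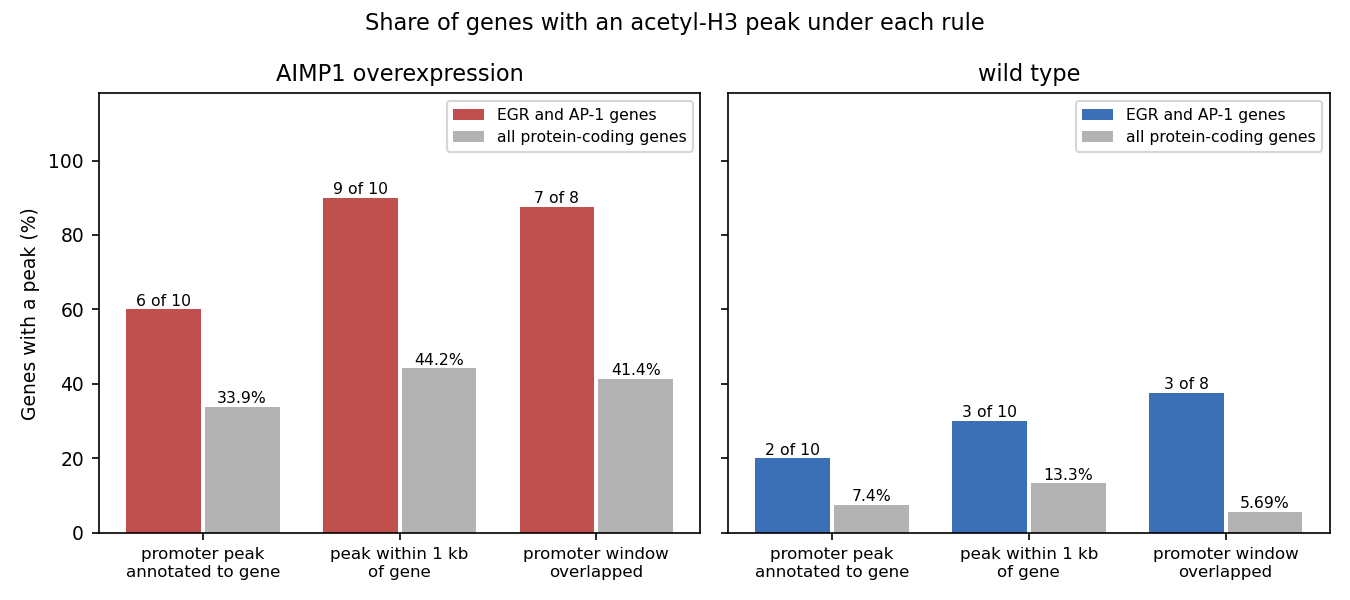
Percentage of genes with an acetyl-H3 peak under 3 rules, for the overexpression list (left) and the wild-type list (right). Coloured bars are the EGR and AP-1 genes with their counts, and grey bars are all protein-coding genes; the coloured bars rise from 6 of 10 to 9 of 10 on the left when position replaces the authors' gene label.

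Of the 8 annotated overexpression peaks, 2 overlapped a wild-type peak by at least 1 bp, both at FOSB. Of all overexpression peaks 10.9% did (95% exact binomial interval 10.3 to 11.6, which covers counting error only). Of the 4 annotated wild-type peaks, those of FOSB and JUNB overlapped an overexpression peak, against 22.2% of all wild-type peaks (21.1 to 23.4). Within 1 kb of the genes by position, 5 of 11 overexpression peaks and 3 of 3 wild-type peaks overlapped the other list. The 5 include both FOSB peaks, which met the same wild-type peak. The share among peaks within 1 kb of any gene was not computed. The shares above are for whole lists, which also hold peaks far from genes, so they are not a like background for these counts. The overlapping wild-type peaks of JUN and JUNB were contained in overexpression peaks that were 3.20 and 3.80 times as wide. At FOSB the upstream overexpression peak was 0.672 times as wide as the wild-type peak and the downstream one 1.40 times. Wider overexpression peaks were a feature of the whole lists, whose median widths were 1621 and 828.5 bp.

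The peaks of the 10 genes varied in width and height. The annotated overexpression peaks ran from 1185 bp (FOSB) to 3348 bp (EGR1), with a median of 1606 bp, which is close to the median of the whole list. The 11 peaks within 1 kb by position ran from 1185 to 4988 bp, with a median of 2618 bp, and 8 of the 11 were wider than the list's median. The 3 widest were those over JUN, JUND and JUNB. Of these 11 peaks, 9 had a fold above the list's median of 7.34, and the exceptions were EGR3 and the upstream FOSB peak. All 11 were classed as promoter peaks, whose median in this list was higher, at fold 7.65 and width 1684 bp. Against that fold the FOSL2 peak (7.55) was lower too. The 4 annotated wild-type peaks had a median of 1066.5 bp, and all 4, like all 3 wild-type peaks within 1 kb, were wider than that list's median. In the wild-type list only the JUN peak, of the 3 peaks within 1 kb, had a fold above the list's median of 4.47. Where an overexpression peak touched a member's window, its summit lay 188 bp (FOS) to 1555 bp (EGR1) from the start site, with a median of 586 bp over 7 pairs of window and peak. Over all 8515 such pairs the median was 317 bp.

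**Figure D3:**
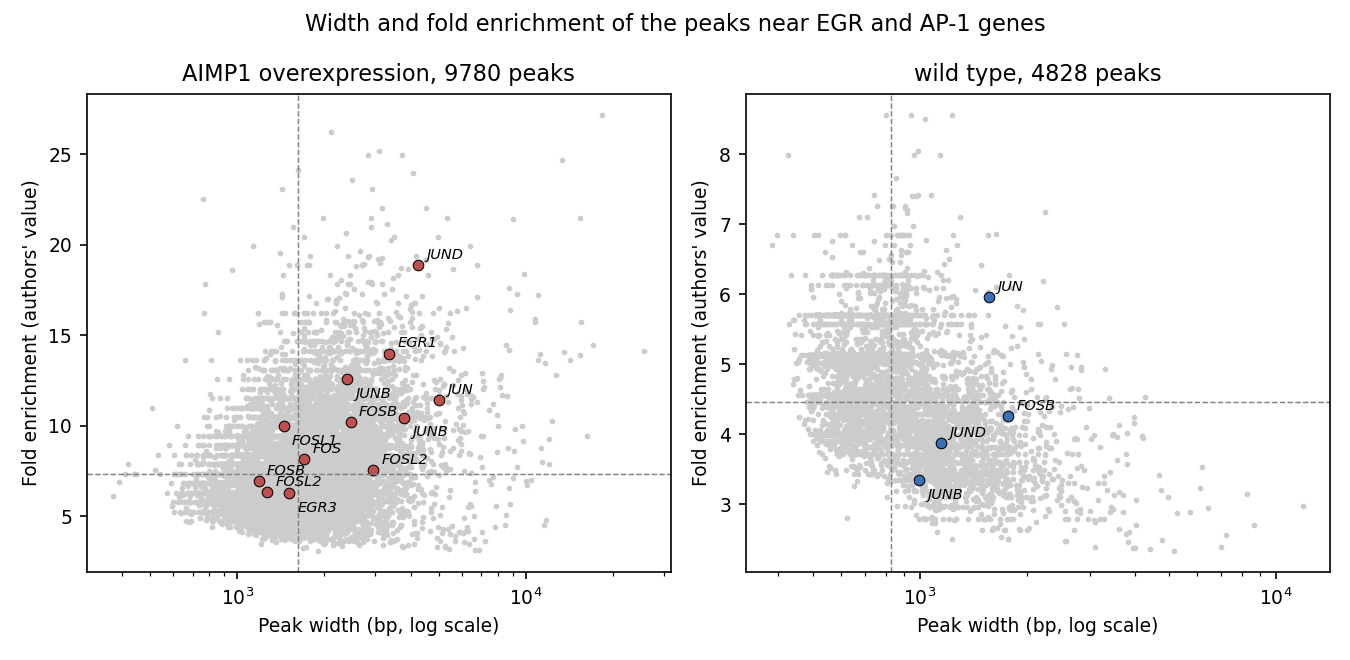
Width (bp, log scale) against the authors' fold enrichment for each peak of the overexpression list (left, 9780 peaks) and the wild-type list (right, 4828 peaks). Coloured points are peaks within 3 kb of a start site of the 10 genes and dashed lines are the list medians. In the left panel JUND, EGR1 and JUN are among the points above and to the right of both medians, as are points of JUNB, FOSB, FOSL2 and FOS. The 2 vertical axes have different ranges.

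Of 59 other genes that control the EGR and AP-1 proteins, partner them or are induced with them, 36 carried an annotated promoter peak in overexpressing cells, 10 in wild-type cells and 6 in both. Among all protein-coding genes the shares were 33.9%, 7.40% and 5.39%. Of the SRF and ternary complex factor genes, 5 of 6 did so in overexpressing cells and 0 in wild-type cells. SRF itself had the highest fold of these (13.47, chromosome 6, 43170262 to 43173058, p 1.03e-43), followed by its coactivator genes MRTFB (8.91) and MRTFA (8.38). SRF also had a wild-type peak, inside the gene in an intron (43174538 to 43175529, fold 3.69, p 0.000345), which no overexpression peak overlapped. Of the 6 genes of the JNK pathway, whose kinases phosphorylate JUN, 5 carried one in overexpressing cells, with MAP2K7 (9.96), MAPK10 (8.52) and MAP3K1 (8.5) highest. MAPK10 was also in the wild-type list (4.57), where its peak overlapped the overexpression peak by 54 bp. Of EGR4 and the EGR corepressor genes NAB1 and NAB2, NAB1 alone had a peak, in the overexpression list (7.34).

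Of 15 genes for leucine zipper partners of AP-1, 8 carried a promoter peak with AIMP1 overexpressed and 4 without. Among all protein-coding genes 33.9% and 7.40% did, and 2.01% had one in wild-type cells alone. ATF4, the effector of the integrated stress response, had the highest fold (21.48, chromosome 22, 39518861 to 39521759, p 4.39e-43), followed by the stress-induced ATF3 (8.91) and by BATF3 (7.8). MAF, an oncogene activated by translocation in some myelomas, was in both lists (7.46 and 3.59). Its wild-type promoter peak overlapped the overexpression peak at 7.46 by 53 bp. It overlapped a second MAF overexpression peak, at 6.27, by 993 bp. ATF7 (5.02), ATF2 (4.57) and MAFF (4.57) had one in wild-type cells alone, at p of 0.000318, 0.000441 and 0.000701. By position ATF2 also had an overexpression peak within 1 kb of the gene, while ATF7 and MAFF had none.

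Of 29 other immediate early genes, 17 carried a promoter peak with AIMP1 overexpressed, 5 without, and 4 in both conditions. Among all protein-coding genes the shares were 33.9%, 7.40% and 5.39%, and 2.01% had one in wild-type cells alone. KLF6 (14.8, width 4715 bp), the nuclear receptor gene NR4A2 (13.06) and ZFP36, which encodes a protein that destabilizes mRNA (12.53), had the highest folds. By position, no overexpression peak lay within 1 kb of NR4A2 in RefSeq. The ZFP36 peak at 12.53 lay 2481 bp from the start used by the authors' annotation. The genes in both lists were MCL1, a survival gene of plasma cells (9.77 and 3.95), NR4A1 (9.43 and 4.57), IER5 (6.14 and 4.22) and ZFP36 (12.53 and 4.47). The promoter peaks of MCL1 overlapped between the lists, whereas those annotated to IER5 and ZFP36 were 931 and 1671 bp apart. By position, however, the ZFP36 wild-type peak overlapped an overexpression peak given to another gene by 866 bp. Peaks of both lists touched the RefSeq promoter window of ZFP36. NR4A1 had 3 overexpression and 2 wild-type promoter peaks; its wild-type peak at 4.57 lay inside an overexpression peak of fold 4.93 and not in the one at 9.43. GADD45B, a stress response gene, had one in wild-type cells alone (3.93, chromosome 19, 2475693 to 2476471, p 0.000405); an overexpression peak annotated to it was distal intergenic, 29509 bp from a start site (4.19). The shares of these lists marked in overexpressing cells, from 33.3% (EGR4 and corepressors) to 83.3% (SRF and JNK lists), stand beside 33.9% of all protein-coding genes.

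**Figure D4:**
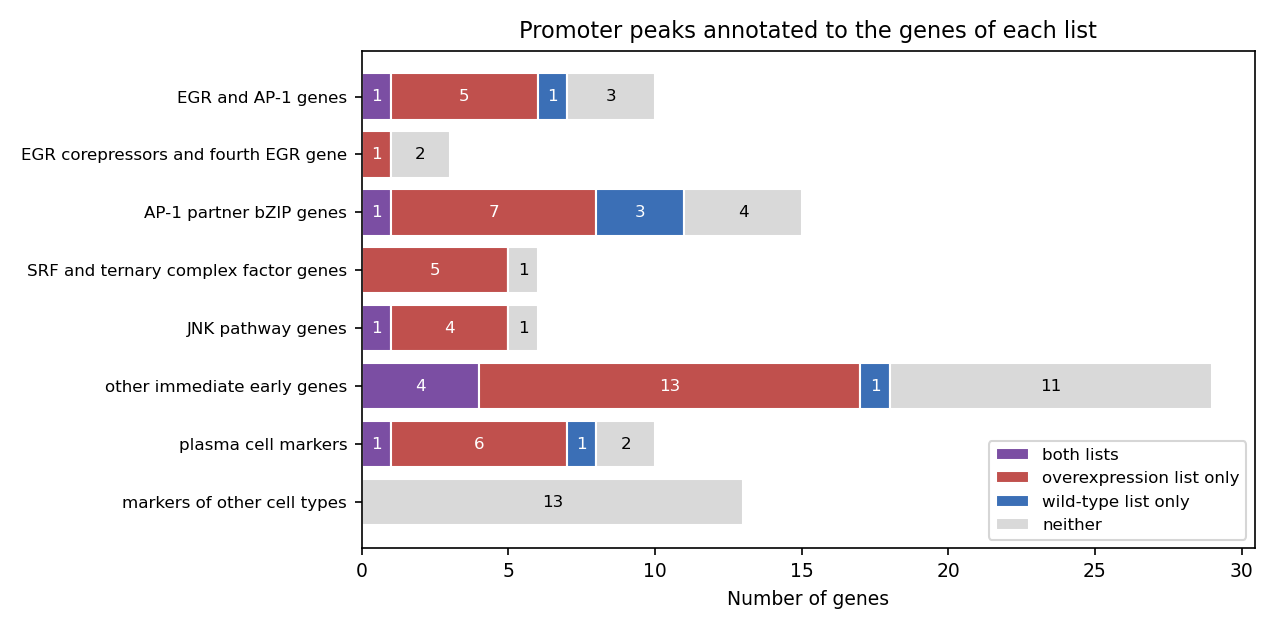
Number of genes in each list by where the authors' annotation put a promoter peak: in both peak lists, in 1 of them or in neither. The EGR and AP-1 genes divide into 1, 5, 1 and 3, and the 13 markers of other cell types have no promoter peak in either list.

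The lists as a whole differed in ways that bear on every count above. The overexpression list covered 18.5 Mb and the wild-type list 4.79 Mb, and 84.9% and 36.0% of their peaks were at promoters. Read depth is unknown, and with 1 library per condition a difference between the conditions cannot be told apart from a difference between the libraries. Of 10 plasma cell marker genes, 7 were marked at the promoter in overexpressing cells and 2 in wild-type cells, and 7 of 10 had some annotated peak in each. Of all protein-coding genes, 33.9% and 7.40% had a promoter peak, and 36.1% and 14.5% had some annotated peak. PRDM1 (17.29), XBP1 (16.51) and JCHAIN (15.87) had the highest overexpression folds of these markers, MZB1 had a promoter peak in both lists (12.58 and 5.22), and POU2AF1 in the wild-type list alone (5.53). Of 13 markers of other cell types, 0 had a promoter peak in either list. Away from promoters, 2 of the 13, CD3E and COL1A2, had an annotated wild-type peak and 0 an overexpression peak.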

How the data were processed

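Per the submitters' processing notes, reads went through cutadapt, Trimmomatic, FastQC and Bowtie2; no version is named, and the peak caller, threshold and genome build are likewise not given in these sources. The series has 4 samples; the 2 inputs were not analysed here. Per the file headers, each deposited peak has a fold enrichment (a ratio by the authors) and a p-value (at most 0.001 in both lists), a summit offset and 1 gene. Depth is unknown, and no replicates were pooled. Members, lists and rules were chosen with earlier results of these data known. Named were all 10 members and, of each other list, the genes in both peak lists or the wild-type list only and the 3 highest overexpression folds; CD3E, COL1A2, EGR4 and NAB2 were named outside this rule, after their values were seen. Gene positions came from RefSeq GRCh38.p14, where 99.9% and 99.8% of matched identifiers lay at the same gene; promoter sequences are RefSeq's. All 92 list genes matched. Overlap needed 1 bp; that step was tested on simulated peaks. No test across samples was possible. Tables were handled with pandas 2.3.3 and numpy 2.4.6 in Python 3.11.15, intervals came from scipy 1.17.1, and plots were drawn with matplotlib 3.10.9.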

Additional observations from a re-analysis of the deposited data

How the results depend on the processing

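No paired analysis was possible because each condition had 1 library. The alternatives by promoter window, and the overlap of peaks chosen by position, were added after seeing the data. The 59 pathway genes are those of the lists of regulators, partners and other immediate early genes. With any annotated peak, 2 members were in both lists, and 17 pathway genes were in the wild-type list and 13 in both. Within 1 kb of a TSS, 6 pathway genes were in the wild-type list and 3 in both. By position within 1 kb, 3 members were in both lists, the number of overexpression peaks overlapping a wild-type peak rose from 2 to 5, and the median width of all 11 overexpression peaks there was 2618 bp. By promoter windows, 3 members were in both lists, and 3 pathway genes were in the wild-type list and 2 in both. At p of at most 1e-05, 1 member, FOSB, and 2 pathway genes were left in the wild-type list, the pathway genes both shared; 1 annotated wild-type peak of the members was left, 1763 bp wide, and 1 overlapped. With lists of equal length (4828 peaks), 5 annotated overexpression peaks were left, with a median width of 2468 bp, and 1 overlapped. With an overlap of 50% of either peak, 1 overexpression peak overlapped. With only peaks whose fold reached the joint median of the lists (6.11), 0 members and 0 pathway genes had a wild-type promoter peak. Thus 0 were in both and 0 peaks of either list overlapped. This threshold removes mostly wild-type peaks, and folds cannot be compared across the lists, so these counts say nothing about the genes themselves. Members marked in overexpressing cells numbered between 5 and 9 under these alternatives, and pathway genes between 26 and 40. Unknown depth limits every statement that a peak was not listed.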
